A study of Mus musculus with 76 samples.

Results

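The 6 genes described here are Ltb, Cd27, Cd72, Cd79b, Vpreb1 and Igll1, transcripts of B cells and of lymphocytes in general. They were taken by name, 6 of the 15192 genes in the deposited table, and all 6 were listed in it. The values are from 76 mouse iHPCs, sorted singly, whose polyA RNA was amplified and made into libraries with 2 Vazyme kits (Discover-sc WTA V2, then TruePrep V2). Per the labels, iHPCs arose from pluripotent stem cells in which Runx1, Hoxa9 and Hoxa10 were expressed together from inducible constructs, and they could engraft. All 76 cells form this 1 group, and no control cells were analysed here. The labels tie no cell to a culture or animal, so the cells are 1 sample, differences between cells were not tested, and shares carry only an interval for the counting of cells. Cells are named below by the letter and number that end their titles, as in cell A10.

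Lymphotoxin beta, the product of Ltb, is a membrane protein that holds secreted lymphotoxin alpha at the cell surface and signals to other cells through the lymphotoxin beta receptor. CD27 is a receptor of the TNF receptor superfamily found on T cells, NK cells, some B cells and early lymphoid progenitors, and its ligand is CD70. CD72 is an inhibitory surface lectin best known from B cells, with semaphorin 4D as a ligand and the phosphatase SHP-1 as a partner. CD79B pairs with CD79A to form the signalling part of the B cell receptor, while VpreB1 and lambda 5, the product of Igll1, form the surrogate light chain of the pre-B cell receptor.

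The values are TPM, a share of transcripts scaled for gene length, so levels of different genes can be compared. Each cell's values summed to 1000000 TPM, so the read depth behind them is unknown. Detection was set at 1 TPM, and counts at 10 TPM stand beside it. A median of 4182.5 genes was detected per cell (range 2465 to 5992). A value of 0 can be a failed capture, since Tbp and Polr2a, genes that every cell uses, reached 1 TPM in 36 and 22 of the 76 cells.

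Promoter windows from RefSeq (GRCm38.p6, 250 bases before to 50 after a start site) were found for 5 of the 6 genes, and for Cd79b none was printed. The windows of 2 pairs are shown, Ltb with Cd72, as 9 of the 10 cells with Cd72 at 10 TPM also held Ltb, and Vpreb1 with Igll1, neighbours on chromosome 16 that were found in different cells. Capitals mark matches, on either strand, to RUNX (TGTGGT or TGCGGT), E-box (CAGGTG), ETS (AGGAAG or CGGAAG) or EBF (TCCC and GGGA with any 2 bases between) letters.
Ltb, chr17:35194257-35194556, plus strand: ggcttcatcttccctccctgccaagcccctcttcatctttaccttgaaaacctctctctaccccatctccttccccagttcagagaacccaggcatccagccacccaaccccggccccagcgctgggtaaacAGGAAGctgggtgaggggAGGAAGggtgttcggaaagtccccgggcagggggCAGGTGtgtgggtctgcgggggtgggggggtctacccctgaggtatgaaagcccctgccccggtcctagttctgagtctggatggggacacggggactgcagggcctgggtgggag
Cd72, chr4:43454577-43454876, minus strand: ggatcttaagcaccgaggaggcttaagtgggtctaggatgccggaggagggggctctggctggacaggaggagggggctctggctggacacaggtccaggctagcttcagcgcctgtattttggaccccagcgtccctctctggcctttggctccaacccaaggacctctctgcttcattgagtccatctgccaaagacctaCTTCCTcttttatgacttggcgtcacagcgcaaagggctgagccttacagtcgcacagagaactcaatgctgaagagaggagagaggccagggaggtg
Vpreb1, chr16:16869206-16869505, minus strand: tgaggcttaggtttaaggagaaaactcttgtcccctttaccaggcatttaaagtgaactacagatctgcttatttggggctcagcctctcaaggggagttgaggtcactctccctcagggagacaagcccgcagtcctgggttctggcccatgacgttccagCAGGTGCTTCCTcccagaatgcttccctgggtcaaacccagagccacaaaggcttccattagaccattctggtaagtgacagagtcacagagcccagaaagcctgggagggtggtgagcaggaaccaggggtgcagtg
Igll1, chr16:16863936-16864235, minus strand: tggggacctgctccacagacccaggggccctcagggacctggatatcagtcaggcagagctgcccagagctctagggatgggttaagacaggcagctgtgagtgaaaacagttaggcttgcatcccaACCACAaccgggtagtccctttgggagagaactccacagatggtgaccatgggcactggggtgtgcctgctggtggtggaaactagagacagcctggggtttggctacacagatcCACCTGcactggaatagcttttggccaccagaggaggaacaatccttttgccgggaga

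Only the Igll1 window held RUNX letters, and no window of the 5 genes held EBF letters. E-box letters lay in the windows of Ltb, Vpreb1 and Igll1. ETS letters lay at 2 places in that of Ltb and once each in those of Cd72 and Vpreb1, and the window of Cd27 held no match to any of the 4. Among all 32851 windows of this length, 22.4% held RUNX, 20.2% E-box, 46.5% ETS and 0.904% EBF letters. A match is a string of letters in the window, and binding was not measured.

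Ltb was the member found in most cells and at the highest level. It lies on chromosome 17 (35194507 to 35196305, plus strand) and was detected in 62 of 76 cells (81.6%, exact Clopper-Pearson 95% interval 71.03 to 89.5%). At 10 TPM it was found in 37 cells (48.7%, 37.04 to 60.4%), so 25 cells carried between 1 and 10 TPM. Its lowest value was 0 TPM (10 cells), its median 7.14 TPM and its highest 1466 TPM, in cell D6. The next highest cells were E7 with 1044 TPM and C10 with 903 TPM. The highest cell below 10 TPM held 7.93 TPM and the lowest above it 14.6 TPM, and the median of the 37 cells was 180.0 TPM.

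Cd27 (chromosome 6, 125232620 to 125237136, minus strand) was detected in 33 cells (43.4%, interval 32.1 to 55.3%) and reached 10 TPM in 29 (38.2%). Its median over all cells was 0.374 TPM, its median in the 29 cells was 190 TPM and its highest value was 569 TPM, in cell A7. Only 4 cells lay between 1 and 10 TPM. By title number, Cd27 was detected in 56.8% of the 37 cells numbered 2 to 6 and in 30.8% of the 39 cells numbered 7 to 11. For comparison, 26.4% of all listed genes were detected in at least as many cells as Cd27, against 11% for Ltb.

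Cd79b (chromosome 11, 106311341 to 106314562, minus strand) was detected in 28 cells (36.8%, interval 26.1 to 48.7%) and at 10 TPM in 26. The median of the 26 cells was 144 TPM and the highest value 456 TPM, in cell H5, followed by E7 with 445 TPM and E4 with 404 TPM. In 39 cells Cd79b was listed at 0. Of all listed genes, 30.4% were detected in at least as many cells.

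Cd72 (chromosome 4, 43447724 to 43455102, minus strand) was the rarest of the 4 frequent members, detected in 12 cells (15.8%, interval 8.43 to 25.96%) and at 10 TPM in 10. In ascending order, these 10 cells held 33.96 TPM (D9), 50.1 TPM (F6), 115 TPM (A4), 135 TPM (B11), 150.1 TPM (D2), 170 TPM (B5), 257 TPM (H11), 309 TPM (A10), 340.1 TPM (H6) and 375 TPM (A5). The highest value among the other 66 cells was 1.99 TPM, so no cell lay between 1.99 and 33.96 TPM. A share of 49.2% of all listed genes was detected in at least as many cells as Cd72. Exons of Cd72 overlap those of Tesk1 on the opposite strand. Tesk1 was detected in 4 cells, and its rho with Cd72 was 0.03.

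Vpreb1 (chromosome 16, 16868401 to 16869255, minus strand) was detected in 1 cell, A10, at 101 TPM. Igll1 (chromosome 16, 16860671 to 16863985, minus strand), 4416 bases away, was also detected in 1 cell, E11, at 121 TPM. A share of 1 of 76 is 1.32% with an interval of 0.0333 to 7.11%, and 81.2% of all listed genes were detected in at least as many cells. The values of Vpreb1 are uncertain because its transcript is 97.5% identical to that of Vpreb2 over 686 aligned bases. Vpreb2, the other VpreB gene, had its only value in the same cell, 10.1 TPM.

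**Figure D1:**
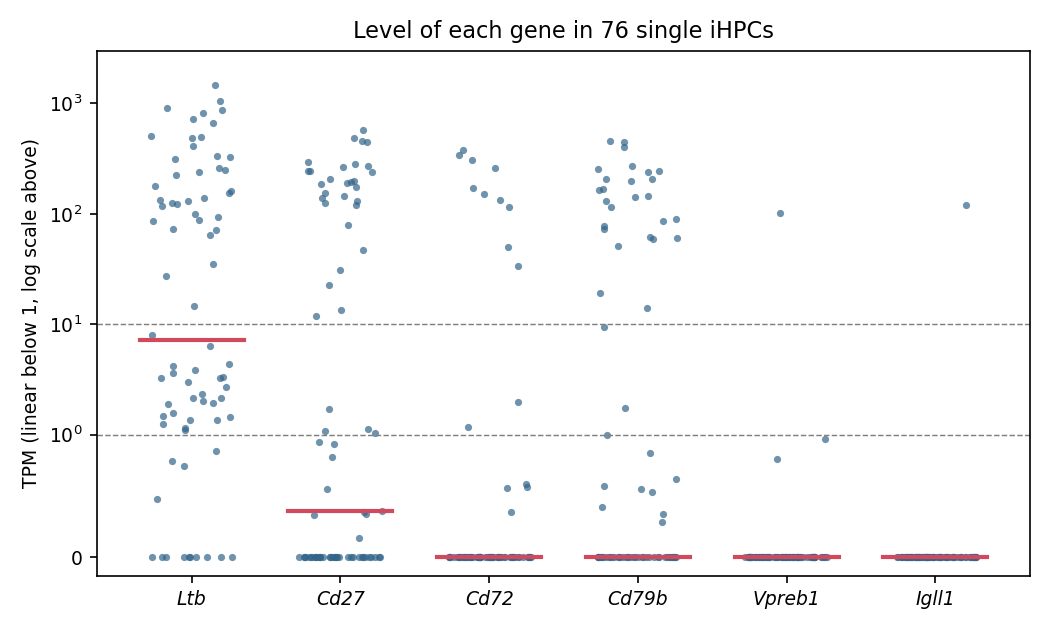
TPM of each of the 6 genes in the 76 cells (vertical axis, linear below 1 TPM and logarithmic above). Each point is a cell, red bars are medians and dashed lines mark 1 and 10 TPM. Ltb alone has many cells between the dashed lines (25), and Vpreb1 and Igll1 each have 1 cell near 100 TPM.

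By mean over all cells, the order was Ltb (162 TPM, SD over cells 286), Cd27 (79.0 TPM, SD 133), Cd79b (57.9 TPM, SD 107), Cd72 (25.5 TPM, SD 77.9), Igll1 (1.59 TPM) and Vpreb1 (1.36 TPM). Ltb and Cd27, Cd27 and Cd79b, and Cd79b and Cd72 each differed by less than either gene's SD over cells. Where Ltb and Cd27 were both at 10 TPM or more, in 19 cells, Ltb was the higher in 9. Ltb was likewise higher than Cd79b in 6 of the 12 cells with both. The order of the 4 highest means was also the order of the number of cells at 10 TPM, whereas the medians within those cells ran from 144 to 190 TPM.

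Low values were set beside the titles. Vpreb1 had 2 values below 1 TPM, 0.967 in cell A3 and 0.798 in cell A7, and both cells share the letter of A10. Of the 15 cells sharing the letter or number of A10, 2 thus had a low Vpreb1 value, against 0 of the 60 others. For Cd72, values above 0 and under 10 TPM were found in 6 of the 50 cells sharing a letter or number with a cell at 100 TPM or more, and in 0 of the 16 others. For Cd79b the counts were 10 of 48 and 1 of 2, and Igll1 had no low value. All 39 cells with Ltb under 10 TPM shared a letter or number with a cell at 100 TPM or more, so no such comparison was possible for Ltb. The part of these low values in the counts at 1 TPM was not tested, and joint counts are led by the 10 TPM threshold.

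At 10 TPM, 20 cells (26.3%) held none of the 6 genes, 25 held 1, 18 held 2, 10 held 3, 2 held 4 and 1 held 5. If the genes were spread over cells independently, the products of their shares would give 13.4 cells with none, 30.4 with 1, 23.8 with 2 and 7.55 with 3. So more cells than the products give held none and more held 3 or above. At 1 TPM only 4 cells held none, where the products give 4.10. The commonest combinations at 10 TPM were Ltb alone (12 cells), Cd79b alone (9 cells) and Ltb with Cd27 (7 cells). No cell held Cd72 alone.

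**Figure D2:**
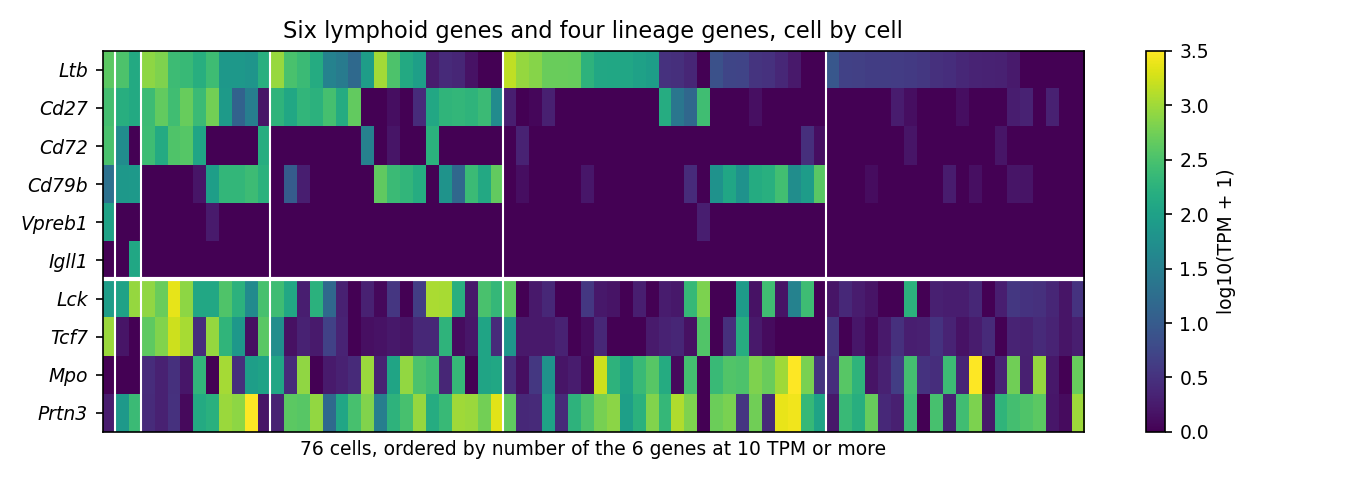
Level of the 6 genes and of 4 lineage genes (rows, colour as log10 of TPM + 1) in the 76 cells (columns), ordered by how many of the 6 genes reached 10 TPM, with white lines between these numbers. The cells with 3 to 5 genes, at the left, all hold Lck, and 9 of these 13 hold Tcf7.

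Of the 10 cells with Cd72 at 10 TPM, 9 also held Ltb, where the product of shares gives 4.87, and 8 held Cd27, where it gives 3.82. Both pairs exceeded the product at 10 TPM within title numbers 2 to 6 (5 cells against 3.41 for Ltb, 5 against 3.08 for Cd27) and within numbers 7 to 11 (4 against 1.64, 3 against 1.03). At 1 TPM Cd72 was found with Ltb in 10 cells, against 9.79 from the product, and with Cd27 in 8, against 5.21. The Spearman correlation of Cd72 with each was 0.24 across the 76 cells (Pearson r 0.34 with Ltb and 0.40 with Cd27). These points share 1 group and a scale that sums to the same total, and the values are a description. Without the 15 cells that held Tcf7 at 10 TPM, 4 cells held Cd72. Of these, 3 held Ltb (1.70 from the product, rho 0.04) and 3 held Cd27 (1.11 from the product, rho 0.06).

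Ltb and Cd27 were found together in 19 cells against 14.1 from the product. This excess lay in title numbers 7 to 11 (8 cells against 4.10), while numbers 2 to 6 had 11 against 10.8. The rho of the pair was 0.19. At 1 TPM the pair was in 26 cells, against 26.9 from the product.

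At 10 TPM the joint counts of Cd79b lay nearer to the products. It was found with Ltb in 12 cells against 12.7, with Cd27 in 12 against 9.92 and with Cd72 in 3 against 3.42. Its rho was -0.07 with Ltb, 0.06 with Cd27 and -0.01 with Cd72. No rho between 2 of the 4 members reached 0.3, the size taken as large. With values under 10 TPM set to 0, the rho was 0.36 for Ltb with Cd72 and 0.42 for Cd27 with Cd72.

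**Figure D3:**
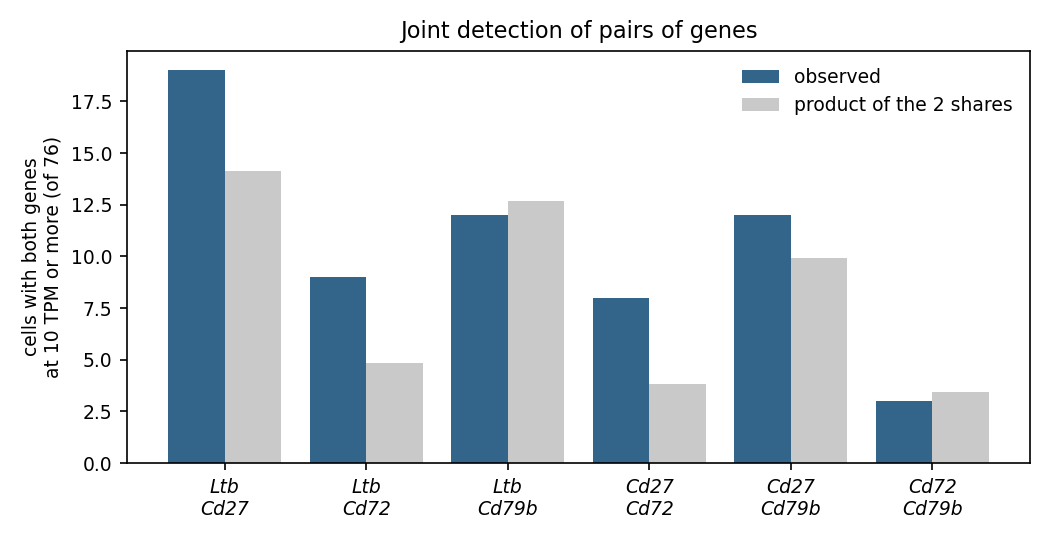
Number of the 76 cells in which both genes of a pair reached 10 TPM (blue) and the number given by the product of the 2 shares (grey). Ltb with Cd72 (9 cells against 4.87) and Cd27 with Cd72 (8 against 3.82) lie farthest above the product in relative terms, and the pairs with Cd79b lie near it.

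The single Vpreb1 cell, A10, held 5 of the 6 genes, with Ltb at 408 TPM, Cd27 at 284 TPM, Cd72 at 309 TPM and Cd79b at 19.1 TPM. It also carried T cell and cytotoxic transcripts, with Tcf7, a T lineage transcription factor, at 929 TPM and Trat1, a T cell receptor adaptor, at 769 TPM. Its Gzmb, a cytotoxic granzyme, was the highest of all cells at 1176 TPM, and Gzma was at 1681 TPM. Other genes of the T cell and NK lists, Cd3d, Cd3e, Cd247, Zap70, Cd5, Thy1, Prf1, Il2rb and Klrd1, were listed at 0 in A10. Of the myeloid genes there, Mpo was listed at 0 and Prtn3 was at 0.851 TPM, while the receptor gene Fcgr3 was at 496 TPM and the macrophage gene Cd68 at 405 TPM. The single Igll1 cell, E11, held 4 of the 6 genes, with Ltb and Cd27 both at 132 TPM and Cd79b at 78.3 TPM. Lck, the kinase of T cell receptor signalling, was at 880 TPM in E11, and the adaptor gene Lat at 330 TPM. Tcf7, Trat1, Cd3d, Cd3g, Cd247 and Zap70 were listed at 0 in E11, while the myeloid protease gene Prtn3 was at 245 TPM.

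Other genes of B cell commitment were rare. The list of B commitment and pre-B cell receptor genes held 17 genes, of which 14 were listed. Of these, 4 were in 0 cells, where 81.2% of all listed genes were in at least 1 cell. The median gene of the list was in 1 cell, against a median of 11 cells over all listed genes. Only Tcf3, an E protein gene, was detected in at least 50% of cells (49 cells), as were 23.1% of all listed genes. At 10 TPM, 19.8% of all listed genes were in at least 50% of cells. Cd79a, the partner of Cd79b, was listed at 0 in every cell. Rag2, of the recombinase, reached 10 TPM in 5 cells, of which 4 held Cd27 and 3 held Cd72. All 5 also held Tcf7, from 148 TPM (G9) to 1687 TPM (H6), and Lck, from 81.8 TPM (G9) to 2345 TPM (H6). Rag1, the partner of Rag2, was found once, in cell H11, at 2.25 TPM, and Dntt, the terminal transferase gene, once at 2.02 TPM. Ebf1, Pax5 and Vpreb3 were not listed and were not analysed here.

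Of the mature B and plasma cell list, 9 of 14 genes were listed. Cd22 and Fcrla were in 0 cells, where 81.2% of all listed genes were in at least 1 cell. Xbp1, a regulator of secretory cells that is also widely expressed, was in all 76 cells and Cd37, a leukocyte tetraspanin gene, in 58. Mzb1, an endoplasmic reticulum protein gene of B and plasma cells, reached 10 TPM in 6 cells. All 6 of these held Ltb, where the product gives 2.92, 5 held Cd27 against 2.29, and 4 held Cd72 against 0.79. Their Mzb1 values were 40.4 TPM (E11), 60.9 TPM (G4), 90.03 TPM (A10), 135 TPM (B11), 238 TPM (D2) and 360.1 TPM (H11). Both the Vpreb1 cell and the Igll1 cell were among them. Without the cells that held Tcf7 at 10 TPM, only 1 cell with Mzb1 at 10 TPM was left, E11.

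The B cell receptor signalling list had 20 of its 24 genes listed, and Ighm, Ighd, Igkc and Blnk were not analysed here. Of the 20, 8 were in at least 50% of cells, against 23.1% of all listed genes. They include Cd81 (76 cells), the phosphatase gene Ptpn6 (73), the phospholipase gene Plcg2 (60), Vav1 (57), the kinase genes Btk (55) and Lyn (52), and the kinase subunit gene Pik3cd (48). Syk, the kinase recruited by CD79 proteins, was in 21 cells, and Blk and Cd22 were in 0. Across cells, Plcg2 was the only one of 12 such genes with a rho of 0.3 or more with Cd79b (0.34), where 1.71% of all 8033 genes tested reached 0.3. Several of these genes also serve myeloid receptors, and T cell receptor signalling uses Vav1 too.

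None of the 12 lymphotoxin pathway genes was in at least 50% of cells, where 23.1% of all listed genes were. Their median was 16 cells, against 11 over all listed genes. Lta, whose product pairs with lymphotoxin beta, was detected in 13 cells but reached 10 TPM in 2, of which 1 held Ltb. The receptor gene Ltbr was at 10 TPM in 21 cells, 7 of them with Ltb where the product gives 10.2, and its rho with Ltb was -0.28. The ligand gene Tnfsf14 was at 10 TPM in 14 cells, 8 with Ltb against 6.82 from the product. Map3k14, the kinase of the non-canonical NF-kB pathway, was in 1 cell and Relb in 6, and Tnfrsf14 was listed at 0 in every cell.

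For CD27, the ligand gene Cd70 was not listed. Siva1, whose product binds the CD27 tail, was detected in 68 cells (median 252 TPM), and its rho was 0.00 with Cd27 and -0.32 with Ltb. The adaptor genes Traf2 and Traf5 were in 30 and 15 cells, with rho of -0.17 and 0.02 with Cd27. Among CD72 partners, Ptpn6 was in 10 of the 10 Cd72 cells at 10 TPM, where the product gives 9.08, and the ligand gene Sema4d was in 2 of them against 4.21. No list gene of the lymphotoxin, CD27 or CD72 lists had a rho of 0.3 or more with any of the 4 members.

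Of 14 listed genes of the TNF receptor superfamily, to which CD27 belongs, none was in at least 50% of cells, against 23.1% of all listed genes, and the median was 3 cells, against 11. Tnfrsf13b, which encodes the receptor TACI, was in 32 cells at 1 TPM and 29 at 10 TPM, where Cd27 was in 33 and 29. Tnfrsf18, the GITR gene, was at 10 TPM in 8 cells and 4 of these held Cd72, where the product gives 1.05. The rho of Tnfrsf18 with Cd72 was 0.32.

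**Figure D4:**
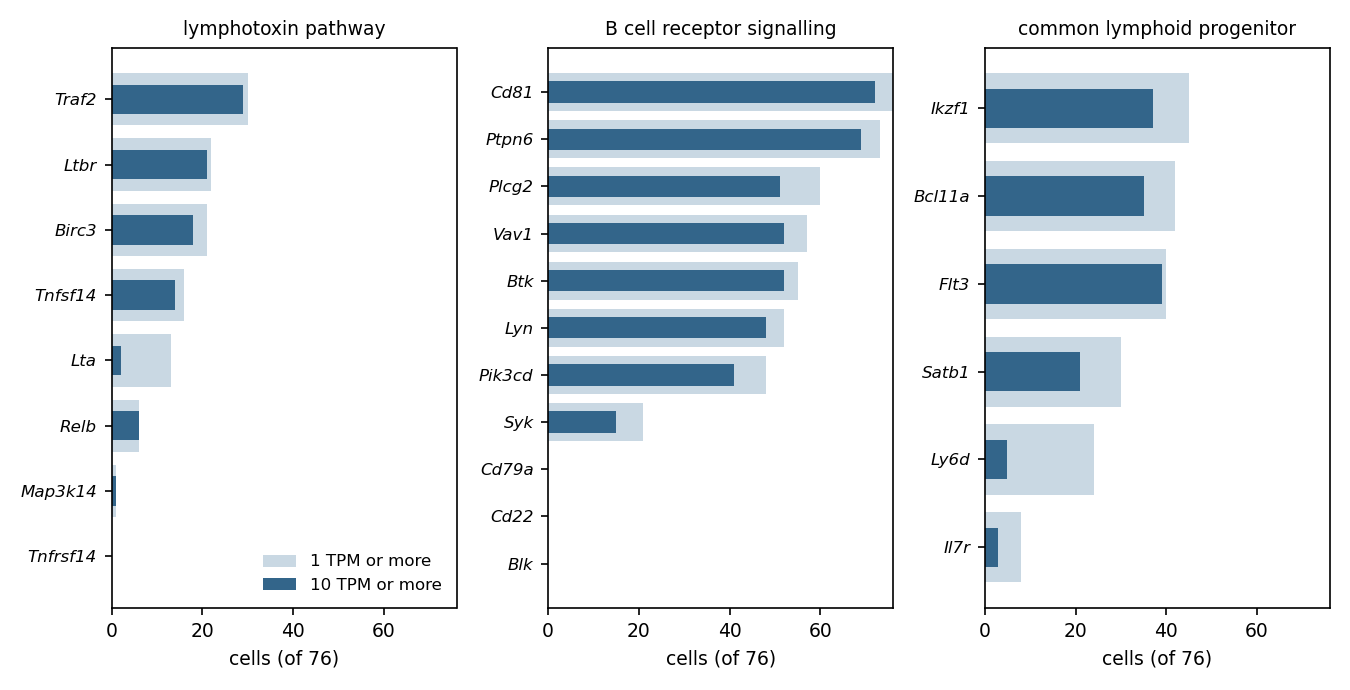
Cells in which genes named in the text reached 1 TPM (light bars) and 10 TPM (dark bars), from the lymphotoxin pathway, B cell receptor signalling and common lymphoid progenitor lists. Cd79a is at 0, whereas Ptpn6 and Plcg2 reach 73 and 60 cells.

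Genes of common lymphoid progenitors were found in part. Ikzf1 was in 45 cells, Bcl11a in 42, the cytokine receptor gene Flt3 in 40 and Satb1, a chromatin organiser of lymphoid progenitors, in 30. Il7r, the receptor of interleukin 7, reached 10 TPM in 3 cells, A3 at 383 TPM, A5 at 233 TPM and B11 at 175 TPM. All 3 held Cd27 and none held Cd79b. Ly6d, a surface marker of B-biased progenitors, was detected in 24 cells but reached 10 TPM in 5, and 4 of these held Ltb, Cd27 or Cd72, counted for each gene. Ly6d was at 794 TPM in A3, 435 TPM in A5, 258 TPM in B11, 182 TPM in D2 and 109 TPM in H11. These 5 cells, the 3 with Il7r among them, all held T cell transcripts. Their Tcf7 ran from 349 TPM (A3) to 1105 TPM (A5) and their Lck from 307 TPM (D2) to 830 TPM (H11).

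Cd27 followed T cell genes most closely. Its highest rho values among 8033 genes belonged to Lck (0.61), Satb1 (0.54), Tcf7 (0.499), Plac8 (0.48), Nrgn (0.48) and Atp8b4 (0.47). Lck and Cd27 were both at 10 TPM in 23 cells, where the product of shares gives 11.4, and neither was in 40. For title numbers 2 to 6 the counts were 16 against 9.24 (rho 0.68), and for numbers 7 to 11 they were 7 against 3.08 (rho 0.44). Without the 15 Tcf7 cells the pair was in 11 cells against 4.18, with a rho of 0.47. Plac8 had a rho of 0.66 in numbers 2 to 6 and 0.11 in numbers 7 to 11.

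A rho of 0.3 or more with Cd27 was reached by 4 of the 5 T cell genes tested, 2 of 3 NK and innate lymphoid genes and 2 of 7 common lymphoid progenitor genes, against 1.33% of all genes. The median rho over the 5 T cell genes was 0.46, against 0.00 over all genes. In the 29 cells with Cd27 at 10 TPM, the summed level of the 13 T cell genes ran from 12.2 to 9062 TPM (median 674). In the 47 other cells it ran from 1.16 to 1369 TPM (median 171), so the ranges overlapped. Cd3e was listed at 0 in every cell and Bcl11b reached 1 TPM in none. The part of these T cell transcripts in the Cd27 values was not tested.

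The lowest rho values with Cd27 belonged to Gata2, a regulator of stem cells and mast cells (-0.45), Pnp, of purine salvage (-0.45), and Fkbp1a (-0.44). Gata2 and Cd27 were both at 10 TPM in 4 cells, where the product gives 12.97. The shares of both genes differed by title number, with Cd27 in 19 and 10 cells of the 2 ranges and Gata2 in 11 and 23. Within numbers 2 to 6 both were in 3 cells against 5.65 (rho -0.44), and within numbers 7 to 11 in 1 against 5.90 (rho -0.28). Among granulocyte-monocyte genes, Mpo (-0.34), Ms4a3 (-0.32) and Cebpa (-0.31) had rho values of -0.3 or less with Cd27, 3 of the 10 tested, against 0.983% of all genes. The median over the 10 was -0.21, and the values nearest 0 were those of Prtn3 and Fcgr3 (both -0.05). The rho with Mpo was -0.21 in numbers 2 to 6, -0.52 in numbers 7 to 11 and -0.24 without the Tcf7 cells. These genes summed to 2.82 to 7439 TPM (median 1077) in the 29 Cd27 cells, against 10.6 to 10737 TPM (median 1276) in the other 47.

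**Figure D5:**
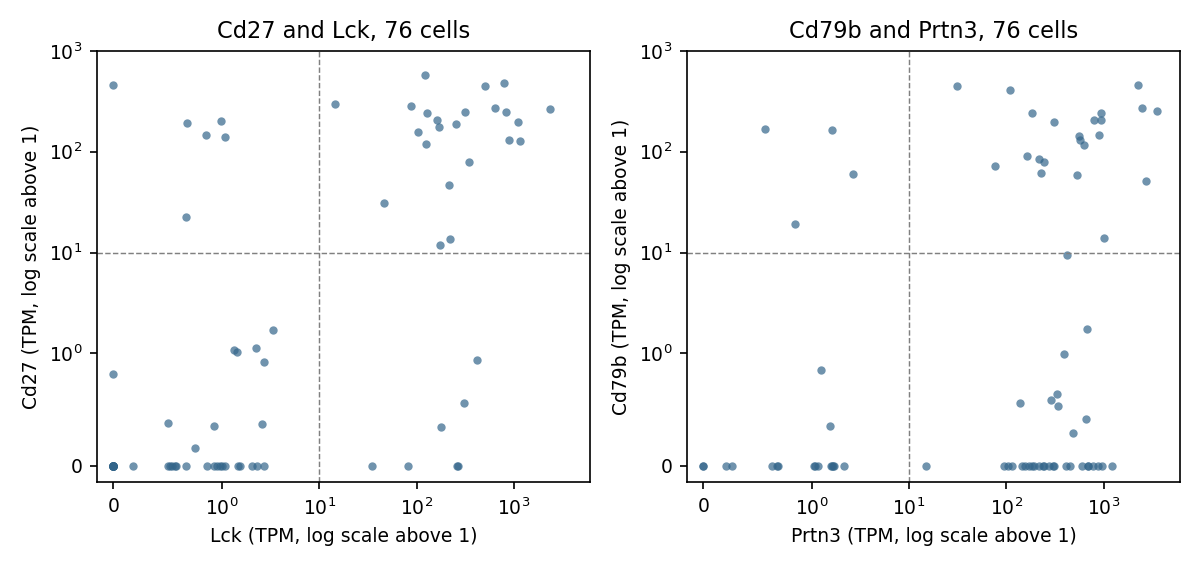
Cd27 against Lck (left) and Cd79b against Prtn3 (right) in TPM, a point per cell, both axes logarithmic above 1 TPM, with dashed lines at 10 TPM. In the left panel 23 cells lie above both lines, and in the right panel 22 do.

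Among the genes most like Cd72 were Tmem121 (rho 0.54), Gstp2 (0.43), Spint2 (0.42), Prss57 (0.41) and Gstp1 (0.41). Gstp1 and Gstp2 are close copies, and how reads were divided among them is uncertain. Tmem121 was at 10 TPM in 13 cells and 8 of these held Cd72, where the product gives 1.71. Of the T cell genes, 3 of 5 reached 0.3 with Cd72, Trat1 (0.38), Lck (0.36) and Lat (0.33), against 0.946% of all genes. Lck was in 9 of the 10 Cd72 cells and Trat1 in 7, where the products give 3.95 and 1.45. Without the 15 Tcf7 cells, 4 Cd72 cells were left, 3 of them with Lck, and no list gene reached 0.3.

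Myeloid genes were read in the same cells. Prtn3, a neutrophil protease gene, was at 10 TPM in 4 of the 10 cells, where the product gives 7.24 (rho -0.33), and the myeloid and dendritic regulator Irf8 in 1 against 5.53 (rho -0.28). Of 10 granulocyte-monocyte genes tested, only Prtn3 had a rho of -0.3 or less with Cd72, against 1.01% of all genes. The median rho over these 10 genes was -0.18, against -0.02 over all genes. Without the 15 Tcf7 cells, all 4 remaining Cd72 cells held Prtn3, where the product gives 3.21 (rho -0.17), and 1 held Irf8 against 2.36 (rho -0.06). In these 10 cells the T cell genes summed to between 397 and 9062 TPM (median 2010), against 1.16 to 2617 TPM (median 218) in the other 66. The granulocyte-monocyte genes summed to between 2.82 and 2938 TPM (median 635), against 10.6 to 10737 TPM (median 1335). Cell D9 was the only Cd72 cell with Lck below 10 TPM (1.07 TPM). It had the highest Mpo (942 TPM) and Prtn3 (682 TPM) of the 10 cells, and cells A4 and B5 also held both genes at 10 TPM. The lowest rho values with Cd72 belonged to Tpst2 (-0.50), Skap2 (-0.42) and 1110059E24Rik (-0.42).

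At 10 TPM Cd79b shared 22 of its 26 cells with Prtn3, where the product gives 18.8, with a rho of 0.34 (0.38 and 0.30 in the 2 ranges of title numbers). In cells with at least 3500 genes the rho with Prtn3 was 0.29. Prtn3 was the only one of 10 granulocyte-monocyte genes with a rho of 0.3 or more with Cd79b, against 1.71% of all genes. The median over the 10 was 0.07, against 0.04 over all genes. Of 6 dendritic and macrophage genes only Cd68 reached 0.3 (0.34), and their median was -0.09. Nkg7, of cytotoxic granules, had the highest rho of the list genes (0.38). In the 26 cells the granulocyte-monocyte genes summed to between 112 and 10737 TPM (median 2109), against 2.82 to 9289 TPM (median 1092) in the other 50. The median number of genes detected was also higher in the 26 cells (4441.5 against 4060), and its part in these sums was not tested. S100a8 was listed at 0 in every cell. Lck was in 16 of the 26 cells against 10.3 from the product, with a rho of 0.16.

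The genes most like Cd79b were Pih1d1 (rho 0.48), the cap-binding gene Ncbp1 (0.47), the lariat debranching gene Dbr1 (0.46), the mitochondrial superoxide dismutase gene Sod2 (0.44), the purine synthesis gene Adsl (0.43) and Api5 (0.43), none of them from the fixed lists. Cd79b also had a rho of 0.32 with the number of genes detected per cell, against -0.04 for Ltb, 0.06 for Cd27 and -0.10 for Cd72. With ranks regressed on genes detected, 49 genes reached 0.3 with Cd79b in place of 137. Lowest were Nipbl (-0.38), Srgn (-0.38) and Birc3 (-0.38), an inhibitor of apoptosis, which shared 1 cell with Cd79b at 10 TPM where the product gives 6.16. Of all genes, 0.349% were at -0.3 or less with Cd79b.

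A rho of 0.3 with Ltb was reached by 33 of 8033 genes (0.411%), against 76 for Cd72, 107 for Cd27 and 137 for Cd79b. Without the 15 Tcf7 cells the counts were 85 for Ltb, 80 for Cd72, 79 for Cd27 and 183 for Cd79b. These are over 61 cells, where a rho varies more than over 76, so the 2 sets of counts are not comparable. Over all 76 cells, the highest rho values with Ltb were those of Il2rg, the common gamma chain of cytokine receptors (0.39), Klhl6, a gene of lymphoid cells (0.37), Pitpnc1 (0.37), Itpk1 (0.37), 1110038B12Rik (0.37) and S100a11 (0.36). Of the list genes only Gata3, a T and innate lymphoid regulator, reached 0.3 (0.33), and it shared 13 cells with Ltb at 10 TPM against 9.25 from the product. The lowest values belonged to the condensin gene Ncapd3 (-0.43), Timm50 (-0.41) and Ift27 (-0.41), and 1.01% of all genes were at -0.3 or less. Ncapd3 was in 2 of the 37 Ltb cells at 10 TPM, where the product gives 8.76. Lst1, the listed gene next to Ltb on 1 side, was in 74 cells with a rho of 0.18, and Tnf, next on the other side, was in 9 with a rho of -0.01.

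Cells with many of the 6 genes differed in T cell transcripts from cells with none. All 13 cells with 3 or more genes at 10 TPM held Lck at that level and 9 held Tcf7, against 1 and 0 of the 20 cells with none. Their T cell genes summed to between 140 and 9062 TPM (median 1211), against 1.53 to 941 TPM (median 78.4). Mpo was in 4 of the 13 and 8 of the 20, and Prtn3 in 7 and 12. The granulocyte-monocyte genes summed to a median of 1007 TPM in the 13 and 1116 TPM in the 20. Lck was at 10 TPM in 7 of the 25 cells with 1 gene and in 9 of the 18 with 2. Most of the 13 cells held Cd27, which itself followed Lck across cells, so the Lck counts here are not a separate result. The median number of genes detected was 4290 in the 13 and 3848.5 in the 20, and its part in these counts was not tested.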

How the data were processed

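RNA from 76 single iHPCs was measured, and all cells form 1 group. The authors deposited 1 table of TPM with 15192 genes. The submitters' processing notes name StringTie 1.3.4, HISAT2 2.1.0, bcl2fastq, SAMtools 0.1.19 and, as the build, mm10. The annotation, gene filter and strand setting are not stated there. TPM keeps no depth, so no count model was used.

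The members and the 12 gene lists (131 genes, 117 listed, 1 of them under an older symbol) were chosen with earlier results of these data known. Detection meant 1 TPM or more, with 10 TPM beside it. Spearman rho was computed across cells on log2(TPM + 1) for genes detected in at least 10 cells (Python 3.11.15, scipy 1.17.1). A rho of 0.3 in size was called large. No test was made, because the group is 1 sample. Named genes were the members, genes of the lists, the 6 highest and 3 lowest rho values for each frequent member, and listed neighbours or overlapping genes. Tbp and Polr2a were chosen after their values were seen, as were the pairs whose joint counts are given by title number and the count of low values above 0. Alternatives were other thresholds, pseudocounts, correlations and cell sets. Doublets were not called, because the labels give 1 sorted cell for each library. No cell was left out. A few genes that the rule names are not reported here.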

Additional observations from a re-analysis of the deposited data

How the results depend on the processing

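Shares and counts were recomputed at other thresholds and in cell sets, and list detection was not recomputed without the Tcf7 cells. Values within their 95% interval, within 1.5 times, or within 0.2 of a rho are not listed. No paired analysis was possible because all cells form 1 group. The share of cells with Ltb was 51.3% at 5 TPM and 48.7% at 10 TPM. That of Cd27 was 56.8% in title numbers 2 to 6 and 30.8% in 7 to 11. Vpreb1 and Igll1 were in 0% of numbers 2 to 6, and Vpreb1 in 0% without the Tcf7 cells. At least 2 of the 6 genes were in 76.3% of cells counting any value above 0, in 42.1% with 5 TPM required and in 40.8% with 10 TPM, and at least 3 in 13.1% without the Tcf7 cells. Ltb with Cd27 was in 48.7% at any value above 0 and 23.1% in numbers 7 to 11. Ltb with Cd79b was in 42.1% counting any value above 0, in 18.4% with 5 TPM required and in 15.8% with 10 TPM. The rho of Ltb with Cd72 was 0.038 without the Tcf7 cells.

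List genes at a rho of 0.3 or more with Ltb numbered 1, and 3 with Pearson correlation, 2 with a pseudocount of 0.1, 4 with values under 10 TPM set to 0, 2 in numbers 7 to 11 and 2 without the Tcf7 cells. For Cd27 they were 4 without the Tcf7 cells in place of 8. For Cd72 they were 2 in numbers 2 to 6, 2 in cells with at least 3500 genes and 0 without the Tcf7 cells, in place of 6. For Cd79b, in place of 4, they were 2 with low values at 0, 1 with ranks regressed on genes detected, 2 in numbers 2 to 6 and 2 with at least 3500 genes.

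Over all genes, the count for Ltb was 192 and 144 in the 2 ranges of numbers, 72 with at least 3500 genes and 85 without the Tcf7 cells. For Cd27 it was 316 in numbers 2 to 6. For Cd72 it was 133 with low values at 0, 234 and 188 in the 2 ranges and 133 with genes in at least 1 cell. For Cd79b it was 210 and 215 with Pearson correlation at the 2 pseudocounts, 49 with ranks regressed, and 289 and 533 in the 2 ranges.

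Genes in at least 50% of cells were 2 for the lymphotoxin list and 2 for the CD27 list at any value above 0. For common lymphoid progenitors they were 2 at 10 TPM and 2 in numbers 7 to 11. For T cells they were 4 counting any value above 0, 1 with 5 TPM required, 1 with 10 TPM and 1 in numbers 7 to 11. The 36 genes named by rank were picked as extremes in these same cells, which the alternatives use again. Counts of values that stayed are thus no independent support for these genes. Of their 324 alternative rho values, 318 stayed within 0.2, 6 moved and 0 changed sign. The causes of these shifts were not tested. Depth is unknown, so it limits every value at 0.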
